A study of Mus musculus with 2 samples.

Results

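Polyamine synthesis and control was followed through 10 genes in cultured mouse Th17 cells: Odc1, Azin1, Oaz1 and Oaz2 around ornithine decarboxylase, Amd1, Srm and Sms in spermidine and spermine synthesis, Sat1 in catabolism, and Dhps and Eif5a in hypusine formation. They were chosen by name as members of the pathway, and all 10 were found among the 17002 genes of the expression table. Each of the 10 reached 1 FPKM (fragments corrected for transcript length and library depth) in both libraries, a level that 10998 genes of the table reached in at least 1.

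The study compared wild-type C57BL/6 mice with lncRNA-GM-/- mice, which lack a long non-coding RNA, and its title ties that RNA to Th17 differentiation and to the activity of Foxo1. Naive CD4+ T cells (source: spleen) were cultured under Th17-polarising conditions for 3 days before RNA extraction, in both genotypes alike. There were 2 libraries, 1 per genotype. The sources used here do not give how the knockout was made, how many mice gave cells or whether cells were pooled. With 1 library per genotype there was no replicate spread and no test, so every difference below describes these 2 libraries, in which culture and genotype cannot be told apart. Each log2 ratio divides knockout FPKM + 1 by wild-type FPKM + 1, a gene is counted as higher or lower at 1.5-fold or more on that scale, and intervals are 95% exact (Clopper-Pearson) intervals of the read ratio, which cover counting error only. In bulk RNA, fewer cells of a type and less RNA per cell cannot be told apart.

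Polyamines are small, positively charged molecules that bind RNA and DNA and are needed by dividing cells, among them activated T cells. Ornithine decarboxylase makes putrescine, and the transfer of aminopropyl groups from decarboxylated S-adenosylmethionine turns putrescine into spermidine and then spermine. Spermidine also donates the group that turns a lysine of the translation factor eIF5A into hypusine, and polyamine metabolism is known to influence whether T cells take the Th17 or the regulatory fate. Antizymes hold the pathway in check by binding ornithine decarboxylase and sending it to the proteasome, and antizyme inhibitors counter them by binding the antizymes.

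Odc1, which encodes ornithine decarboxylase, the rate-limiting enzyme of the pathway, was the member with the largest difference between the libraries. It lies on chromosome 12 from 17544808 to 17551502 (GRCm38.p6), and it was at 63.9 FPKM in wild-type cells and 108 FPKM in knockout cells. The knockout was 1.68-fold higher, with a log2 ratio of 0.75, and about 3176 and 5295 reads gave an interval of 0.70 to 0.82. Odc1 was the single member of the 10 that was past 1.5-fold upward, and none was past it downward. Over all 10998 measured genes, 2.71% passed the limit upward and 5.20% passed it downward. An absolute log2 ratio as large as that of Odc1 was found for 5.05% of measured genes.

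The genes for the proteins that control ornithine decarboxylase differed less, and in both directions. Oaz1, which encodes the main antizyme, lies on chromosome 10 from 80826656 to 80829290. It was at 307 FPKM in wild-type cells and 329 FPKM in knockout cells, a log2 ratio of 0.10 with an interval of 0.05 to 0.15. Oaz2, the second antizyme gene (chromosome 9, 65676548 to 65690300), was at 22.6 FPKM in wild-type cells and 19.2 FPKM in knockout cells, with a log2 ratio of −0.22 and an interval of −0.38 to −0.09. Azin1 encodes antizyme inhibitor 1, which resembles ornithine decarboxylase, has no decarboxylase activity and frees the enzyme from antizyme. It lies on chromosome 15 from 38487430 to 38519294. It was at 29.6 FPKM in wild-type cells and 23.9 FPKM in knockout cells, with the lowest log2 ratio of the 10 members, −0.30, and an interval of −0.41 to −0.22.

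On the scale of FPKM, the level of Oaz1 was 4.81 times that of Odc1 in the wild type and 3.04 times in the knockout. The level of Odc1 was 2.16 times that of Azin1 in the wild type and 4.53 times in the knockout. The enzyme gene was thus higher in the knockout relative to both its antizyme gene and its antizyme inhibitor gene. These are ratios of RNA levels within a library, and no protein was measured.

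For the antizymes the RNA level is a step removed from the protein, because the coding sequence is read in 2 frames. Ribosomes meet a TGA stop codon early in the mRNA, and polyamines are known to promote a +1 shift of the reading frame there, without which no full-length antizyme is made. The sites of both antizyme genes are shown because mRNA levels do not tell how often that shift took place. They are written 5′ to 3′ on the plus strand from GENCODE transcripts (GRCm38), with the TGA in capitals, and cover chr10:80828255-80828334 and chr9:65686232-65686311.
Oaz1: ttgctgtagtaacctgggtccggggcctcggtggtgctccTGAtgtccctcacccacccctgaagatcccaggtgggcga
Oaz2: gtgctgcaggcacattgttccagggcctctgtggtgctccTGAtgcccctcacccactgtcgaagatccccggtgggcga
In the coding annotation the first T of the TGA is skipped, as a gap of a single base between coding segments. The TGA follows 68 codons from an annotated start in Oaz1 and 32 codons in Oaz2, with no earlier stop in that frame. The windows of the 2 genes share 65 of their 80 bases, and the run of identical bases that holds the TGA is 15 long.

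**Figure D1:**
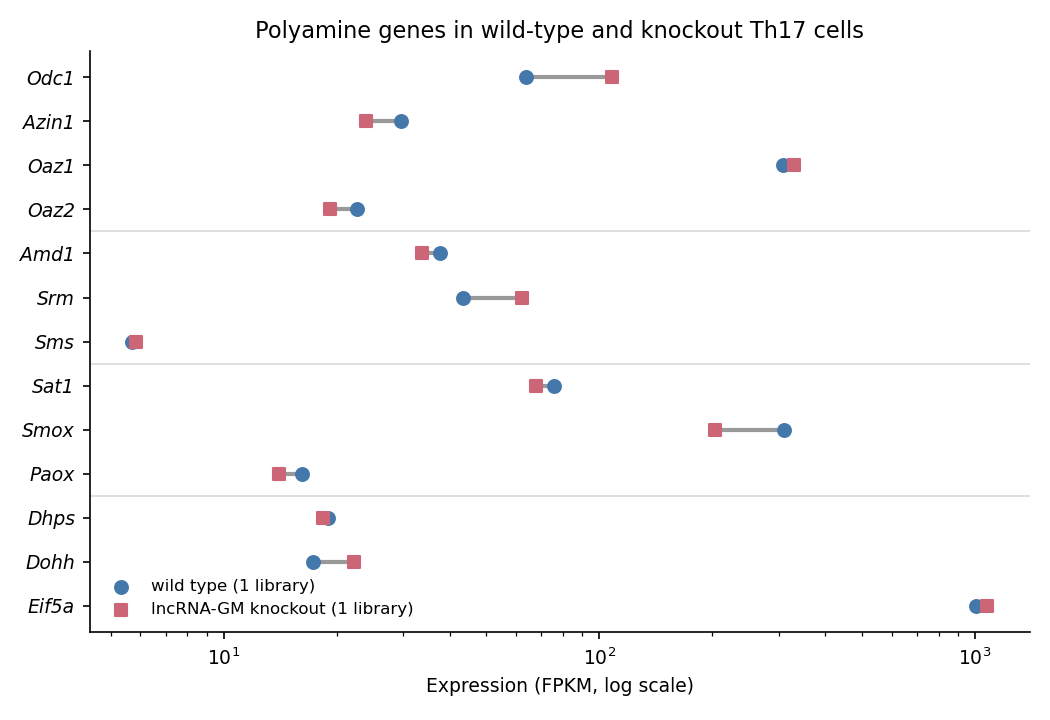
Expression of the 10 members and of Smox, Paox and Dohh in each library, in FPKM on a log axis; circles are the wild-type library, squares the knockout library, and each symbol is 1 library with no error. Odc1 and Srm lie to the right in the knockout, at 108 and 62.3 FPKM, while Smox lies to the left, at 204 FPKM against 310 FPKM in the wild type.

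Among the enzymes that make spermidine and spermine, Srm stood apart. Srm encodes spermidine synthase (chromosome 4, 148591513 to 148594619), and it was at 43.3 FPKM in wild-type cells and 62.3 FPKM in knockout cells. Its fold of 1.43 lay just under the 1.5-fold limit, with a log2 ratio of 0.51 and an interval of 0.41 to 0.64 from about 1110 and 1571 reads. Of all measured genes, 10.1% had an absolute log2 ratio at least as large. Odc1 and Srm, which catalyse the steps into putrescine and spermidine, thus had the highest log2 ratios of the members, Srm within the limit, while the other 8 had log2 ratios between −0.30 and 0.10.

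Amd1 encodes S-adenosylmethionine decarboxylase, which supplies the aminopropyl donor, and it was slightly lower in the knockout. It lies on chromosome 10 from 40287458 to 40302188. It was at 37.7 FPKM in wild-type cells and 33.6 FPKM in knockout cells, a log2 ratio of −0.16 with an interval of −0.25 to −0.08. Sms encodes spermine synthase (chromosome X, 157443851 to 157492287). By its own row it was the least abundant of the 10 members in both libraries. It was at 5.71 FPKM in wild-type cells and 5.85 FPKM in knockout cells, and its interval of −0.16 to 0.24 included 0.

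Both values depend on how reads were divided between near-identical copies. Amd2, a copy of Amd1 made up of a single exon on the same chromosome (35708691 to 35711891), was at 2.52 FPKM in wild-type cells and 0.11 FPKM in knockout cells, or about 156 and 7 reads. The annotated transcripts compared, of 3204 bases for Amd1 and 3218 for Amd2, differ by 14 substitutions, of which 1 lies in the coding sequence, G1124C (Amd1 base, position counted from 1 at the 5′ end of the Amd1 transcript, Amd2 base). That position is shown because it is the single coding substitution found. Inserted or deleted bases were not counted. Position 166 of Amd1 pairs with 168 of Amd2, and 1124 with 1129, so at least 1 such difference lies between them. Whether it lies in the coding sequence was not determined. The sequences are from the minus strand, 5′ to 3′, at chr10:40290162-40290210 for Amd1 and chr10:35710740-35710788 for Amd2 (GRCm38), with the differing base in capitals.
Amd1: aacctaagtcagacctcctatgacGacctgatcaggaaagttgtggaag
Amd2: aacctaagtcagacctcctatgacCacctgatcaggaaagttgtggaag
Summed, the pair was at 40.2 FPKM in wild-type cells and 33.7 FPKM in knockout cells, and its log2 ratio was −0.25. The lower value in the knockout was therefore found for Amd1 alone and for the pair.

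The Sms row is less certain. The processed pseudogene Sms-ps, on the same chromosome (62775128 to 62776637), matches Sms at 100% identity over its 1101 annotated bases. It was listed at 20.5 FPKM in wild-type cells and 18.4 FPKM in knockout cells, so that Sms held 21.8% of the summed level in the wild type and 24.2% in the knockout. Summed, Sms and Sms-ps were at 26.25 FPKM in wild-type cells and 24.21 FPKM in knockout cells. FPKM is corrected for length, and the Sms transcript has 3717 bases against 1101 for Sms-ps. The sum and the shares therefore weight reads of the pseudogene more. They do not give the level that Sms would have with the reads of both, so the sum was not ranked among the members. The summed log2 ratio was −0.11, with the opposite sign to the 0.03 of Sms alone. Of the 10 members, 7 had at least 1 annotated near-identical copy, 21 copies in all. Some were short matches, such as 125 aligned bases for a copy of Eif5a. For Amd1 and Sms 1 copy each was listed in the table. Odc1 had 4 such copies and Eif5a 2, none of them with a row used here, and Srm, Azin1 and Dhps had none.

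**Figure D2:**
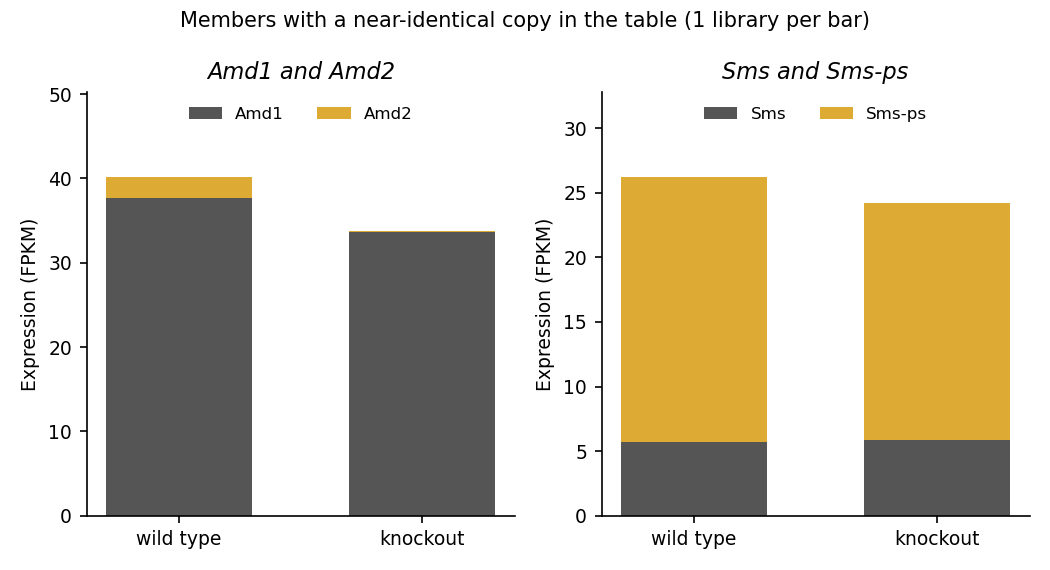
Stacked FPKM of Amd1 with Amd2 and of Sms with Sms-ps in each library, 1 library per bar and no error. The Amd2 part is visible at 2.52 FPKM in the wild type and is at 0.11 FPKM in the knockout. Sms-ps makes up most of the summed FPKM of its pair in both libraries, but it is much shorter than Sms and FPKM is corrected for length.

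On the side of catabolism, Sat1 encodes spermidine/spermine N1-acetyltransferase, which marks polyamines for export or oxidation. Sat1 (chromosome X, 155213126 to 155216449) was at 75.8 FPKM in wild-type cells and 67.8 FPKM in knockout cells, a log2 ratio of −0.16 with an interval of −0.26 to −0.07. Smox, which is not among the 10 members and encodes the oxidase that turns spermine back into spermidine, was the most abundant of the other measured pathway genes in the wild type, and came after Slc3a2 in the knockout. It was at 310 FPKM in wild-type cells and 204 FPKM in knockout cells, from about 12434 and 8047 reads. The knockout was 1.52-fold lower, with a log2 ratio of −0.60 and an interval of −0.64 to −0.56, and the fold was below 1.5 once the median of all genes was subtracted. Paox, the oxidase of acetylated polyamines, had 16.1 FPKM in wild-type cells and a log2 ratio of −0.19.

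Summed over genes, which was chosen after the values were seen, Odc1, Amd1, Srm and Sms came to 151 FPKM in wild-type cells and 210.0 FPKM in knockout cells. Sat1, Smox and Paox came to 402 FPKM in wild-type cells and 285 FPKM in knockout cells. The level of Smox was 4.85 times that of Odc1 in the wild type library and 1.88 times in the knockout library. The ratios of the sums, 1.39 and 0.711, both lay within 1.5-fold, and among their members Odc1 and Smox alone passed that limit, Smox not after the median of all genes was subtracted. Amd1, in the first sum, had a log2 ratio below 0.

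The hypusine branch was close to equal at the member genes. Dhps encodes deoxyhypusine synthase, which attaches the spermidine-derived group to eIF5A. It lies on chromosome 8 from 85071486 to 85075162. It was at 19.0 FPKM in wild-type cells and 18.4 FPKM in knockout cells, a log2 ratio of −0.04 with an interval of −0.23 to 0.14. Its exons overlap Wdr83 on the opposite strand, which was at 17.3 and 13.0 FPKM, and without known strandedness reads of the overlap cannot be told apart. Eif5a, on chromosome 11 from 69916712 to 69921958, was the most abundant member, at 1005 FPKM in wild-type cells and 1077 FPKM in knockout cells. Its log2 ratio was 0.10, with a narrow interval of 0.07 to 0.13 that reflects about 20359 and 21468 reads.

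Outside the members, Dohh encodes the hydroxylase that completes hypusine. It was at 17.3 FPKM in wild-type cells and 22.3 FPKM in knockout cells, with a log2 ratio of 0.35 and an interval of 0.19 to 0.54. The paralog Eif5a2 was at 2.64 and 2.13 FPKM, far below Eif5a in both libraries.

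The order of the 10 members by FPKM was the same in both libraries, except that Odc1 and Sat1 traded the third and the fourth place. In the wild type it ran Eif5a, Oaz1, Sat1, Odc1, Srm, Amd1, Azin1, Oaz2, Dhps and Sms. Sms is placed by its own row, without Sms-ps. Over the 10 members, 5 log2 ratios were above 0 and 5 below 0, with a median of −0.01. The median of all 10998 measured genes was −0.03. The list as a whole thus showed no shift in 1 direction beyond that of the measured genes, and its range ran from −0.30 for Azin1 to 0.75 for Odc1.

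**Figure D3:**
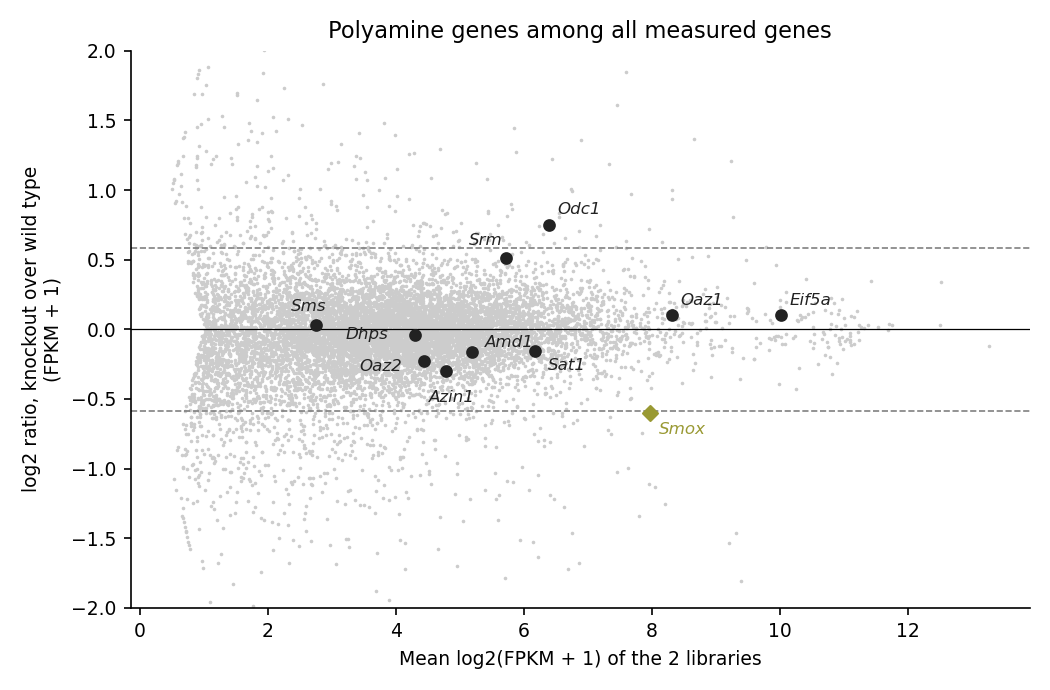
Log2 ratio (knockout over wild type, FPKM + 1) against the mean log2(FPKM + 1) of the 2 libraries for all 10998 measured genes (grey), the 10 members (black circles) and Smox (diamond); dashed lines mark 1.5-fold, and 46 genes lie outside the vertical axis. Odc1, at 0.75, is the only member beyond a dashed line, and Srm, at 0.51, lies next below it.

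The other genes of the pathway were taken from a list of 37, of which 34 were in the table and 26 reached 1 FPKM in at least 1 library. Of these 26, 2 were at least 1.5-fold higher, 3 were at least 1.5-fold lower and 21 lay within 1.5-fold, against 7.91% of all measured genes past the limit in either direction. Their median log2 ratio was −0.01. The higher genes were Arg1 and Azin2, and the lower genes were Mycn, Amd2 and Smox.

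Among genes of arginine and ornithine supply that reached 1 FPKM, all lay within 1.5-fold apart from Arg1. Arginase 1, the enzyme that Arg1 encodes, makes ornithine from arginine. Arg1 was at 0.32 FPKM in wild-type cells and 2.21 FPKM in knockout cells, from about 9 and 64 reads, with a log2 ratio of 1.28 on FPKM + 1 and an interval of the read ratio of 1.84 to 4.05. Arg1 is also a known macrophage gene. Of 8 macrophage and dendritic cell markers, 3 reached 1 FPKM (Cd74, H2-Ab1 and Lyz2) and all 3 passed the limit upward. The summed level of the 8 was 28.4 FPKM in wild-type cells and 64.5 FPKM in knockout cells. Cd74 (15.4 and 39.4 FPKM, wild type first) and H2-Ab1 (10.6 and 21.6 FPKM) made up most of both sums. Among the markers that stayed under 1 FPKM, Mrc1 alone was lower in the knockout, at 0.28 and 0.07 FPKM. Itgax was at 0.83 and 0.91 FPKM, Csf1r at 0.09 and 0.26, Adgre1 at 0.06 and 0.08, and Fcgr1 at 0 and 0.16. The part of macrophages and dendritic cells in the Arg1 difference was not tested.

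The cationic amino acid transporter gene Slc7a1 was at 35.1 and 35.0 FPKM in the wild type and the knockout, and Slc3a2, the heavy chain of several amino acid transporters, was at 291 and 259 FPKM. Ass1 and Asl, which make arginine from citrulline, had log2 ratios of 0.27 and 0.17. Oat, which interconverts ornithine and glutamate semialdehyde, had a log2 ratio of −0.23. Arg2 and Slc7a2 stayed under 1 FPKM in both libraries. Slc7a2, a further cationic amino acid transporter gene, was at 0.35 and 0.97 FPKM. It had about 56 and 153 reads, with an interval of the read ratio of 1.02 to 1.94. The RNA of Slc7a1 and Slc3a2 thus differed little between the libraries, whereas Slc7a2 was higher in the knockout at a low level.

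Genes that supply and salvage methionine also lay within 1.5-fold, except Amd2. Mat2a and Mat2b, the catalytic and regulatory subunits of the enzyme that makes S-adenosylmethionine, had log2 ratios of 0.09 and −0.24. Mtap, which recovers the methylthioadenosine that Srm and Sms release, was at 8.51 and 7.66 FPKM. Of the later salvage genes, Adi1 had the highest log2 ratio, 0.40, and Apip the lowest, −0.28, while Mri1 and Enoph1 lay at −0.01 and 0.16. Among transport genes, the lysosomal and endosomal polyamine transporter genes Atp13a2 and Atp13a3 had log2 ratios of 0.09 and 0.07. Atp13a4, also on the transport list, stayed under 1 FPKM in both libraries and, unlike Slc7a2, was lower in the knockout. It was at 0.82 FPKM in wild-type cells and 0.32 FPKM in knockout cells, from about 84 and 32 reads. The vesicular polyamine transporter gene Slc18b1 was at 3.17 and 1.91 FPKM, with a log2 ratio of −0.52 and an interval of the read ratio of −1.09 to −0.36, and Slc12a8 was at 2.94 and 2.54 FPKM. In the control of ornithine decarboxylase, Azin2, the second antizyme inhibitor gene, had about 25 and 62 reads and a fold of 1.5 on FPKM + 1, right at the limit, whereas Oaz3 and Nqo1 stayed under 1 FPKM.

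Myc, which encodes a transcription factor known to activate Odc1, was at 115 FPKM in wild-type cells and 147 FPKM in knockout cells, a log2 ratio of 0.36 with an interval of 0.31 to 0.41. Its relative Mycn differed in the opposite direction and by more, at 14.1 FPKM in wild-type cells and 3.69 FPKM in knockout cells. The log2 ratio of Mycn was −1.68 on FPKM + 1. About 712 and 184 reads gave a log2 read ratio of −1.93, with an interval of −2.17 to −1.69. Max, the partner of both, was at 51.6 and 53.0 FPKM. Myc thus lay within 1.5-fold, and 19.1% of measured genes had an absolute log2 ratio at least as large, whereas Mycn passed the limit downward.

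Myc and Max bind the E-box CACGTG, which reads the same on both strands. In RefSeq promoter windows of 300 bases (around annotated start sites, GRCm38.p6), 8 of the 10 members were matched, with 14 windows, and the E-box was in 4 of these windows, of Eif5a and Sms. Over all 32851 windows, 7.15% held it. The 3 distinct matches are shown, each on the minus strand with the E-box in capitals, at chr11:69920791-69920820 and chr11:69921443-69921472 for Eif5a and chrX:157492466-157492495 for Sms.
Eif5a, downstream match: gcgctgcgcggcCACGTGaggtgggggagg
Eif5a, upstream match: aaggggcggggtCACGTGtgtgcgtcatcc
Sms: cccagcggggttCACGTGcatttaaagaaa
Azin1 and Srm had no window and were not searched, and no sequence outside the windows, such as introns, was read for any member. The window of Odc1 held no CACGTG. Eif5a and Sms, with the motif in a window, had log2 ratios of 0.10 and 0.03, the latter −0.11 when summed with Sms-ps. The part of Myc in the differences of any member was not tested. A match is a description of these letters and not a sign of binding.

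**Figure D4:**
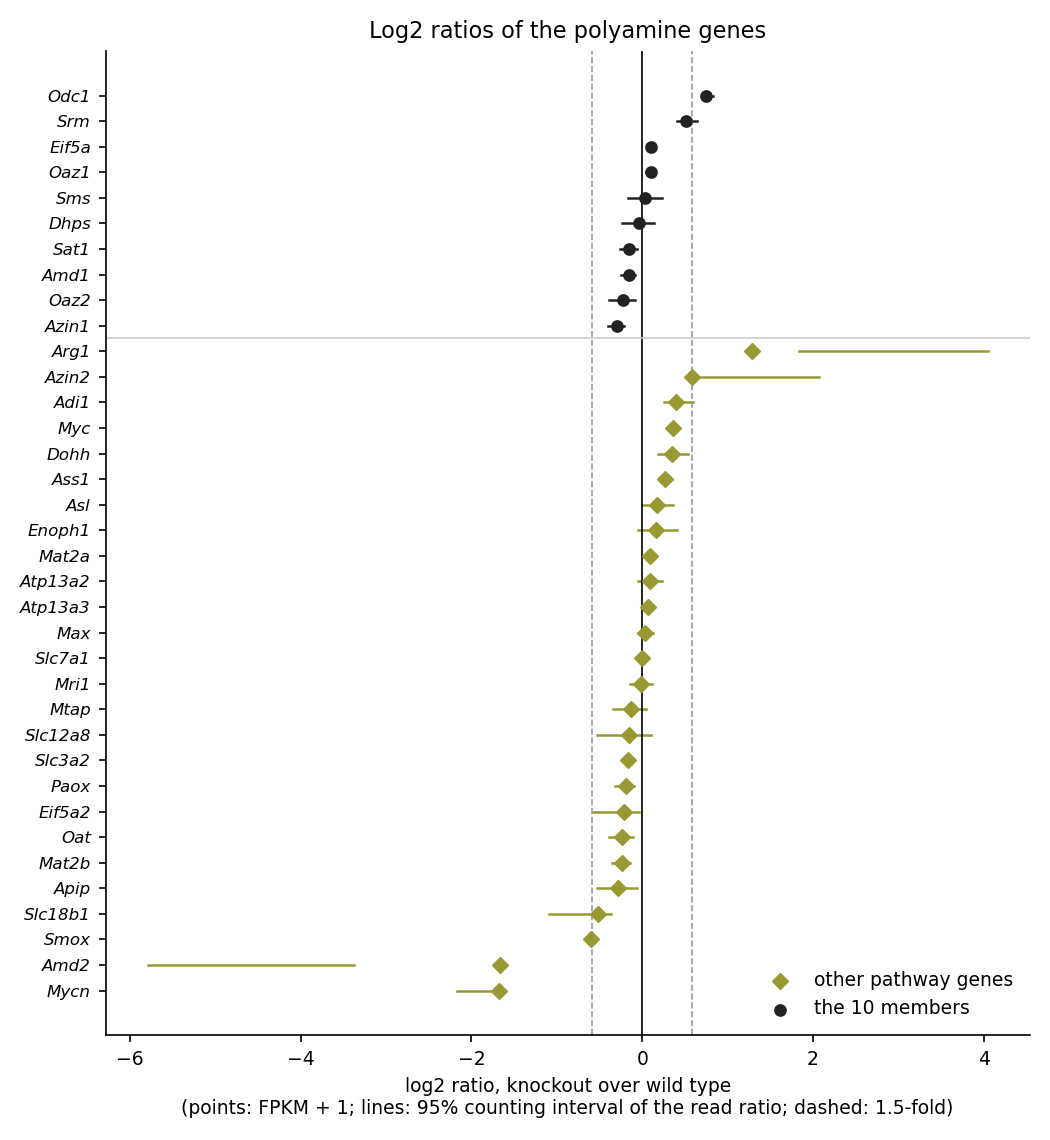
Log2 ratio (knockout over wild type) of the 10 members (circles) and of the 26 measured other pathway genes (diamonds) on FPKM + 1. Lines show the 95% counting interval of the read ratio, and dashed lines mark 1.5-fold. The read ratio has no pseudocount, so its interval can miss the point of a gene with low FPKM in either library. It did so for Arg1, Azin2, Amd2 and Mycn. Among the members Odc1 lies past the dashed line, and among the others Arg1 lies highest and Mycn lowest.

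The authors' deposited table also labels genes with KEGG classes, and its class of arginine and proline metabolism holds 5 of the 10 members. This class was chosen after the values were seen. Of its 50 genes, 33 reached 1 FPKM, and 8 of these passed the limit, against 7.91% of all measured genes, upward for Arg1, Azin2, Nos2 and Odc1 and downward for Aldh7a1, Amd2, Gatm and Smox. Nos2, which makes nitric oxide from arginine, was at 1.47 FPKM in wild-type cells and 2.80 FPKM in knockout cells. As for Arg1, the part of macrophages and dendritic cells in the Nos2 difference was not tested. Gatm, which starts creatine synthesis from arginine, was at 22.1 and 11.1 FPKM, and the aldehyde dehydrogenase gene Aldh7a1 at 8.77 and 5.26 FPKM. Odc1 was the most abundant of the 4 higher genes and Smox the most abundant of the 4 lower genes. The median log2 ratio of the class was −0.02.

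Depth was close to equal, with estimates of 19.5 M fragments for wild-type and 19.2 M for knockout cells. The labelled cell type was checked by its markers. All 5 markers listed for CD4 T cells lay within 1.5-fold, with a summed level of 1826 FPKM in wild-type cells and 1952 FPKM in knockout cells. Of these, Cd3e, Cd3g, Thy1 and Cd5 are shared with CD8 T cells, so the sum does not separate the 2 lineages. Cd4 itself was at 174 FPKM in wild-type cells and 213 FPKM in knockout cells. All 7 Th17 markers were detected in both libraries. Beside the log2 ratios of 0.75 for Odc1 and 0.51 for Srm, 6 of the 7 Th17 markers passed the limit downward, with summed levels of 1582 and 637 FPKM. Markers of CD8 T and natural killer cells were present as well, all 6 past the limit downward, with a summed level of 578 FPKM in wild-type cells and 266 FPKM in knockout cells, and none was at 0. Among them, Cd8b1 was at 212 and 126 FPKM and Cd8a at 98.1 and 55.7 FPKM, wild type first. Cd8b1 was thus above Cd4 in the wild type and below it in the knockout. The part of Th17 content or of such cells in the differences of Odc1, Srm and Smox was not tested. The 4 B cell markers summed to 4.31 and 7.37 FPKM, and the 3 neutrophil markers to 72.0 and 33.5 FPKM, of which Ly6g passed the limit downward at 71.6 and 30.3 FPKM and S100a9 upward at 0 and 2.23 FPKM. Of 3 erythroid markers 1 passed the limit upward, and their log2 ratios ran from −0.09 to 0.62. No row was assigned to lncRNA-GM, whose loss was therefore not checked here.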

How the data were processed

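The 10 genes, the other lists and the thresholds were chosen with earlier results of these data known. Per the submitters' processing notes, the reads were handled with Bowtie2, RSEM and GRCm38.p6. No source used here gives versions, strandedness or filters. The authors deposited 1 table whose expression columns were read as FPKM, a unit inferred from the values because the header names none (the columns sum to 517664 and 514343). The authors' deposited log2 ratio was used as an alternative. The authors' deposited p-value, from 1 library against 1, served only to recover reads: genes listed at 0 in 1 library gave whole reads within 0.05 for 112 of 112 under a Poisson comparison of the libraries, which put 50.4% of reads in the wild type. The deposited FDR, a score here, was not used. Depth in the wild type was the median over 109 single-transcript genes no shorter than 1500 bases (quartiles 19.0 and 19.7 M). Reads came from the p-value where it was below 0.05 (8 members) and otherwise from transcript length (Sms and Dhps). That length was of the longest annotated transcript, which can overstate the reads and make the interval too narrow. Reads are not independent molecules.

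All 10 members, all other list genes that reached 1 FPKM and all listed copies were named. A pseudocount of 1 FPKM was added. Copies were GENCODE M21 transcripts sharing 95% or more of bases over 50% or more of the length of either the member transcript or the copy (BLAST 2.17.0). Steps were tested on simulated data. Software was scipy 1.17.1, pandas 2.3.3, numpy 2.4.6 and matplotlib 3.10.9 under Python 3.11.15.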

Additional observations from a re-analysis of the deposited data

How the results depend on the processing

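Odc1 was the only one of the 10 members at least 1.5-fold apart in all 7 alternatives run for the members: pseudocounts of 0.1 and 5, subtraction of the median, rescaling to equal sums, summed copies, the authors' deposited log2 ratio and recovered reads. Its log2 ratio ran from 0.72 to 0.78, and that of Srm from 0.48 to 0.54. Each member kept its direction in all 7, except Sms, which was below 0 when summed with Sms-ps (−0.11). Counts of the other pathway genes were 2 past 1.5-fold, with 0 higher, both with a pseudocount of 5 and with a minimum of 5 FPKM. Over all genes, 298 were higher, 572 lower and 870 past the limit. These numbers were 127, 228 and 355 with a pseudocount of 5 and 170, 353 and 523 with a minimum of 5 FPKM. With a pseudocount of 0.1 they were 449, 844 and 1293. A higher pseudocount shrinks the ratios of low genes and a higher minimum leaves fewer genes tested, by construction. With 1 library per genotype no library could be left out, and the spread between cultures is unknown. No paired analysis was possible because each genotype had 1 library. For Arg1, Azin2 and Amd2, at 64 or fewer reads in the knockout, depth limits the precision.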
